A study of Homo sapiens
Mus musculus with 2 samples.

Results

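The cytosolic ribosomal proteins are the protein part of the ribosomes that translate nuclear-encoded messenger RNAs. Members were the genes of the deposited tables whose symbols name a ribosomal protein of the small (Rps) or large (Rpl) subunit, with the stalk proteins Rplp0, Rplp1 and Rplp2 and the small-subunit protein Rpsa. Ribosomal S6 kinases, rows named as pseudogenes and rows with under 100 counts over both libraries were left out. Of the 25504 genes in the tables, 84 symbols fitted and 79 passed the count minimum: 31 of the small subunit, 45 of the large subunit outside the stalk, and 3 of the stalk. They were chosen by symbol and by total UMI count over both libraries, not by level in any cell type.

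Each ribosome holds 1 copy of nearly every ribosomal protein, so cells make these proteins in matched amounts. Their messenger RNAs begin with a stretch of pyrimidines, the terminal oligopyrimidine (TOP) motif, through which the growth-promoting kinase complex mTORC1 controls their translation together. In the colonic epithelium, stem and dividing cells lie at the crypt base, absorptive colonocytes and mucus-filled goblet cells mature toward the surface, and deep crypt secretory cells, marked by Reg4 and Kit, sit among the stem cells.

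The cells came from the colonic epithelium of 1 untreated wild-type C57Bl6 mouse, whose age is not given in the sources used here. They were loosened with EDTA, collagenase and DNase, enriched for viability on magnetic columns, mixed with cells of the human leukaemia line K562 and barcoded in inDrop droplets. The 2 libraries, replicates 1 and 2, hold different cells of that animal from 1 sequencing run, so they form 1 group. Unless given as without the library block, each p-value below covers only how far class differences varied between 2 libraries, which may be technical. The shift of a gene common to all classes of a library was removed in those fits. Replicate 1 held 1738 barcodes with 8602490 unique molecular identifiers (UMIs, each marking 1 captured RNA molecule), and replicate 2 held 664 with 3951918. No barcode of one library had the same counts as a barcode of the other. Mitochondrially encoded transcripts took 5.62% and 10.6% of UMIs in replicates 1 and 2, so the libraries differ in this measure of RNA quality.

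Clusters were built without the ribosomal protein genes and were named from marker genes. The 4 epithelial classes compared, with cells in replicates 1 and 2, were stem/cycling (195 and 53 cells, led by Csrp2 and Stmn1), deep crypt secretory-like (272 and 93, led by Reg4 and Txndc5), goblet-like (314 and 76) and colonocyte-like (539 and 185). The summed goblet markers were at 172442 and 153857 CPM (UMIs of a gene per 1000000 UMIs of the sum) in the goblet-like class against 2146.34 to 33436 CPM in the other 3 epithelial classes. The crypt-base classes overlapped in other lists: cycling markers summed to 2415 and 1644 CPM in stem/cycling and 1227 and 1643 CPM in deep crypt secretory-like cells, and stem markers to 1308 and 1166 CPM against 1118 and 1017 CPM. Deep crypt secretory markers set the pair apart, at 695 and 451 CPM against 11299 and 10024 CPM. T cell markers summed to at most 125.5 CPM in the 4 epithelial classes, against 21939.6 and 17727 CPM in a T cell-like class of 58 and 11 cells. No enteroendocrine or tuft cluster was named, and 273 and 212 cells stayed unnamed.

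The 79 members held 778529 UMIs, spread unevenly over the set. By captured UMIs, which are not levels per transcript length, Rps23 (27143), Rpl23 (26910), Rps21 (23694), Rps24 (23170) and Rplp0 (22017) stood highest. At the other end were Rpl9 with 349, Rpl29 with 279, Rps27 with 273, Rpl23a with 257 and Rpl6l with 101 UMIs. Rpl6l lay just inside the minimum, and Rpl10l with 84 UMIs lay just outside it, followed by Rpl35 with 30, Rpl39l with 29, Rpl3l with 6 and Rps12 with 0.

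Rows near 0 include core ribosomal proteins such as Rps12 and Rpl35. Ribosomal protein genes have many near-identical processed copies in the mouse genome, and the counting of reads that fit several places is not given in the sources used here, so the levels of single members are uncertain. A row named as the pseudogene Rps12-ps3 held 5667 UMIs while Rps12 itself held none. Several of the low rows also differed between the libraries: Rpl29 had 14.8 CPM in replicate 1 against 38.5 CPM in replicate 2, a ratio of 2.61, and Rps27 had 16.2 against 33.9 CPM, a ratio of 2.10. The class comparisons were made within each library.

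Ribosomal protein transcripts took a larger part of the RNA in the crypt-base classes than in the other 2 epithelial classes, and the smallest of the 4 in colonocyte-like cells. In stem/cycling cells they made up 10.7% and 10.4% of all UMIs in replicates 1 and 2, with exact binomial 95% intervals of 10.6 to 10.7% and 10.3 to 10.5%. The deep crypt secretory-like class stood at 10.2% and 10.2%, with intervals of 10.2 to 10.3% and 10.1 to 10.3%. Goblet-like cells held 4.77% and 4.46% (4.74 to 4.80% and 4.41 to 4.52%), and colonocyte-like cells 2.71% and 2.90% (2.70 to 2.73% and 2.87 to 2.93%). These intervals cover counting error only. The order stem/cycling, deep crypt secretory-like, goblet-like, colonocyte-like was the same in both libraries, and the first 2 classes lay close together, at a distance similar to that between the libraries of the stem/cycling class. The share in stem/cycling cells was 3.93 and 3.58 times that in colonocyte-like cells, and the share in deep crypt secretory-like cells was 2.14 and 2.28 times that in goblet-like cells. With 2 libraries of 1 animal no test of these shares was made.

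The same order held in molecules per cell. The median cell gave 602 and 866 member UMIs in the stem/cycling class, 560.5 and 819 in the deep crypt secretory-like class, 218 and 303 in the goblet-like class and 89.0 and 106 in the colonocyte-like class, while median depth lay between 4893 and 7909 UMIs per cell in all 8. Mitochondrially encoded transcripts took 7.0% and 13.2% of UMIs in colonocyte-like, 6.38% and 11% in stem/cycling, 3.57% and 6.51% in deep crypt secretory-like and 3.44% and 7.04% in goblet-like cells, and their part in the member shares was not tested. With those transcripts left out of the total, the member share was 2.92% and 3.34% in colonocyte-like and 11.4% and 11.7% in stem/cycling cells. A few secreted products fill goblet cells, where the 20 most abundant other genes took 25% and 25.9% of UMIs; without them the goblet-like share was 6.36% and 6.02%.

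Single cells differed widely within the mature classes and within the stem/cycling class. The share per colonocyte-like cell ran from 0.487% through a median of 1.90% to 12.9% in replicate 1, and from 0.594% through 1.74% to 10.7% in replicate 2. Goblet-like cells ranged from 0.374% to 11.7% and from 0.976% to 10.3%. Stem/cycling cells ranged from 3.64% to 18.6% in replicate 1 and from 2.77% to 21.4% in replicate 2. The lowest deep crypt secretory-like cell stood at 4.78% in replicate 1 and 5.64% in replicate 2, and the quartiles there spanned 8.85% to 11.5% and 8.69% to 11.4%. The quartiles of deep crypt secretory-like and colonocyte-like cells did not overlap in either library. In stem/cycling cells the share fell as the mitochondrial share of a cell rose, with a Spearman correlation across cells of -0.48 and -0.51 over 195 and 53 cells, while in the deep crypt secretory-like class it was -0.043 and 0.12 over 272 and 93 cells. Both shares come from the same UMIs of a cell, so these values are a description.

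**Figure D1:**
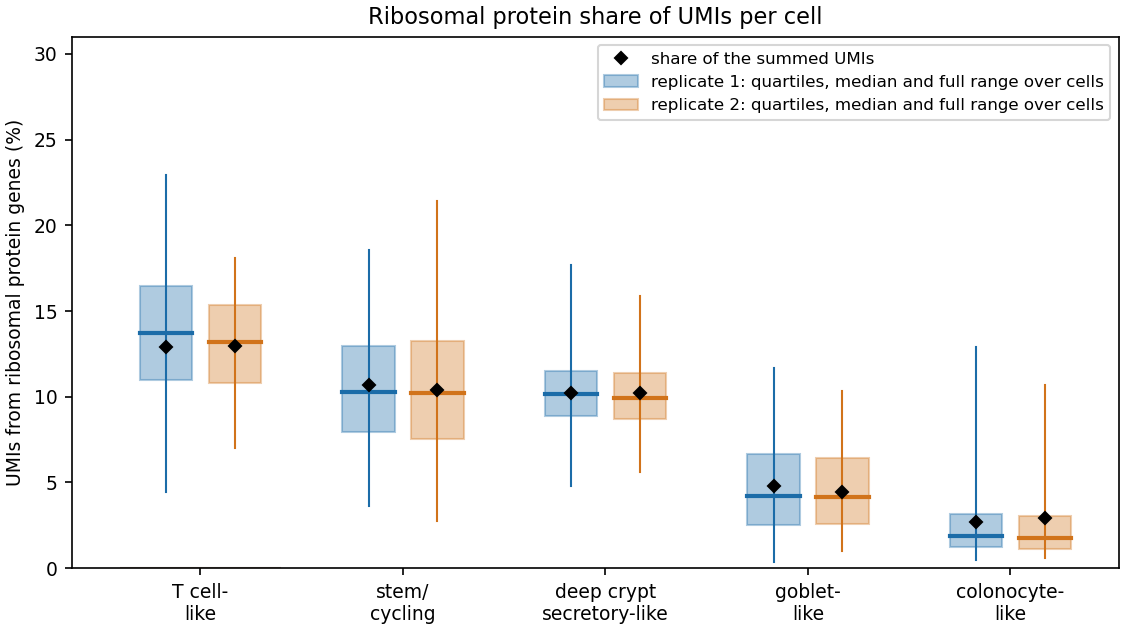
Share of each cell's UMIs that came from the 79 ribosomal protein genes (y axis, %), by class and library. Bars span the quartiles over cells with the median as a line, thin lines the full range, and diamonds the share of the summed UMIs. The medians lie at 9.93% to 10.3% in the stem/cycling and deep crypt secretory-like classes and at 1.74% and 1.90% in the colonocyte-like class.

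The classes were not uniform, and the share also differed between clusters of the goblet-like and of the colonocyte-like class. Goblet-like cells led by Best2 and Scin stood at 6.80% and 6.97%, and those led by the secreted mucus components Clca1, Zg16 and Fcgbp at 2.78% and 2.89%. The Best2-led cluster scored 2.30 for deep crypt secretory markers (mean log2 level relative to all clusters), against 0.75 in the Clca1-led and 2.94 in the deep crypt secretory-like one. Its median depths were 6479.5 and 8262 UMIs against 4075 and 6975, and its median simulated-doublet score was 0.68 against 0.42. The part of these in the difference was not tested. Of the 79 members, 75 had both libraries of the Best2-led cluster above both of the Clca1-led one and 0 the reverse, beside 29.4% and 13.2% of all 8186 genes tested. The median member was 1.32 higher on the log2 scale of mean CPM plus 1, with Rpl6l lowest at 0.35, and the median of all genes 0.23 higher.

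Colonocyte-like cells fell into a cluster led by 1810065E05Rik and Cyp2c55 at 3.29% and 4.12%, one led by Clca4b, Fabp6 and Car4 at 2.19% and 1.89%, and a shallow one led by 2010109I03Rik, Ubd and Aqp8 at 1.78% and 1.58%. The shallow cluster had median depths of 1972 and 2699 UMIs, against 5198 and 6655 in the Clca4b-led one, and a mitochondrial share of 14.1% and 25.7% against 6.25% and 11.5%. The part of depth and RNA quality in its low share was not tested. Both libraries of the 1810065E05Rik-led cluster lay above both of the Clca4b-led one for 72 members and below for 0, beside 27.6% and 11.6% of all genes. Between the Clca4b-led and shallow clusters 34 members lay above in both libraries and 4 below, beside 19.7% and 16.2% of all genes, and the other members overlapped. The median log2 ratio was 0.26 over members and 0.046 over all genes.

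At a finer clustering (Leiden resolution 2, tried after the first clusters had been seen) a cluster led by Gsdmc4 and Gsdmc appeared, which met no naming rule. Its 149 cells came to 68.5% from the 1810065E05Rik-led, to 28.9% from the Clca4b-led and to 2.7% from the stem/cycling cluster. It held 5.14% and 5.91% of UMIs in members. The finer colonocyte-like cluster led by Cyp2c55, 97.3% of whose cells came from the 1810065E05Rik-led one, held 2.04% and 1.8%. The median simulated-doublet score was 0.70 in the Gsdmc4-led and 0.56 in the Cyp2c55-led cluster, and the part of doublets in the difference was not tested. Of the members, 75 were above in both libraries of the Gsdmc4-led cells and 0 below, beside 28.4% and 14.7% of all genes, with a median log2 ratio of 1.57. Rpl12 differed most there, by 2.63, and Rps27l least, by 0.28. At this setting the colonocyte-like class, without the Gsdmc4-led cells, had a mean share of 1.75%, where it had 2.81% at the coarser one. The deep crypt secretory-like cells gave a cluster led by Reg4, Txndc5 and Hmgb2 with the division gene Cdk1, named cycling-like there, at 10.8% and 10.7%. All of its 180 cells came from that class. Another, led by Nov and Reg4, stood at 9.64% and 9.35%, with 85.4% of its cells from that class and 14.1% from the unnamed Olfr1121-led cluster. Median depths were 6397 and 10084 UMIs in the cycling-like against 4177 and 6117 in the Nov-led cluster. Median simulated-doublet scores were 0.64 against 0.48. The part of these in the difference was not tested. The cycling-like cluster was above in both libraries for 30 members and below for 1, beside 23.6% and 14.9% of all genes, with a median log2 ratio of 0.21.

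**Figure D2:**
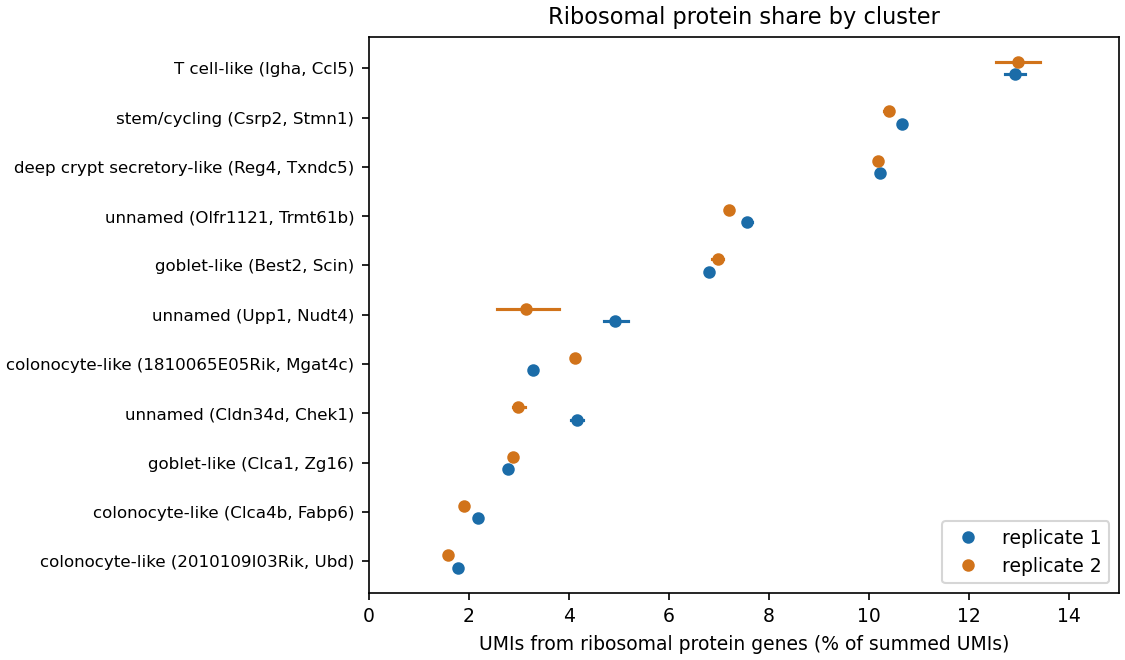
Share of summed UMIs from ribosomal protein genes (x axis, %) in each of the 11 clusters, with the cluster's class and its 2 leading genes on the y axis. Points are the libraries and bars exact binomial 95% intervals. The goblet-like clusters lie at 6.80% to 6.97% and 2.78% to 2.89%, on both sides of the 1810065E05Rik-led colonocyte-like cluster.

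Nearly all members moved with the sum. Each class was compared with the mean of the other 3 by edgeR's quasi-likelihood test on UMI sums per class and library, with the library as a block and Benjamini-Hochberg adjustment over all 8186 genes tested; a gene is called at an adjusted p under 0.05. All 79 members were among the genes tested. In colonocyte-like cells 77 members, all but Rps27l and Rpl9, were called lower and 0 higher, where 19.3% of all genes were called lower and 21.3% higher, and the median member differed by -1.21 on the log2 scale against 0.029 over all genes. In stem/cycling cells 73 were called higher and 0 lower, beside 13.7% of all genes called higher and 13.7% lower, with medians of 0.75 and -0.039. In deep crypt secretory-like cells 74 were higher and 0 lower, beside 15.1% and 10.6%, with medians of 0.81 and 0.081. Goblet-like cells lay between, with 51 lower and 0 higher, beside 8.69% and 11.2%, and medians of -0.35 and -0.027. The 71 members called lower in colonocyte-like and higher in both crypt-base classes include 50 that were also lower in goblet-like cells. Each class is compared with the mean of the other 3, so a low level in any class raises the differences of the others. These joint calls are therefore not independent results. They were not counted over all genes, so nothing is read from the joint counts.

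The goblet-like count was the least firm. It fell to 2 of 79 members without the library block, beside 309 of all 8186 genes called lower, so nothing is read from that count. Without the doublet filter it was 25 of 79, beside 716 of 8156 genes. With DESeq2 size factors Rps29 was called higher in goblet-like cells (0.22, adjusted p = 0.018). At the finer clustering the colonocyte-like median was -1.93. Without TMM scaling (edgeR's trimmed mean of M-values) the median of all genes itself moved to -0.30 in colonocyte-like, -0.25 in goblet-like, 0.29 in deep crypt secretory-like and 0.31 in stem/cycling cells. All-gene calls then ran 1224 higher to 2479 lower in colonocyte-like cells, in place of 1742 to 1576, and 1972 to 621 in stem/cycling cells, in place of 1120 to 1121. Relative to the median of all genes the median member differed by -1.24 in colonocyte-like and by 0.79 in stem/cycling cells under both scalings.

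**Figure D3:**
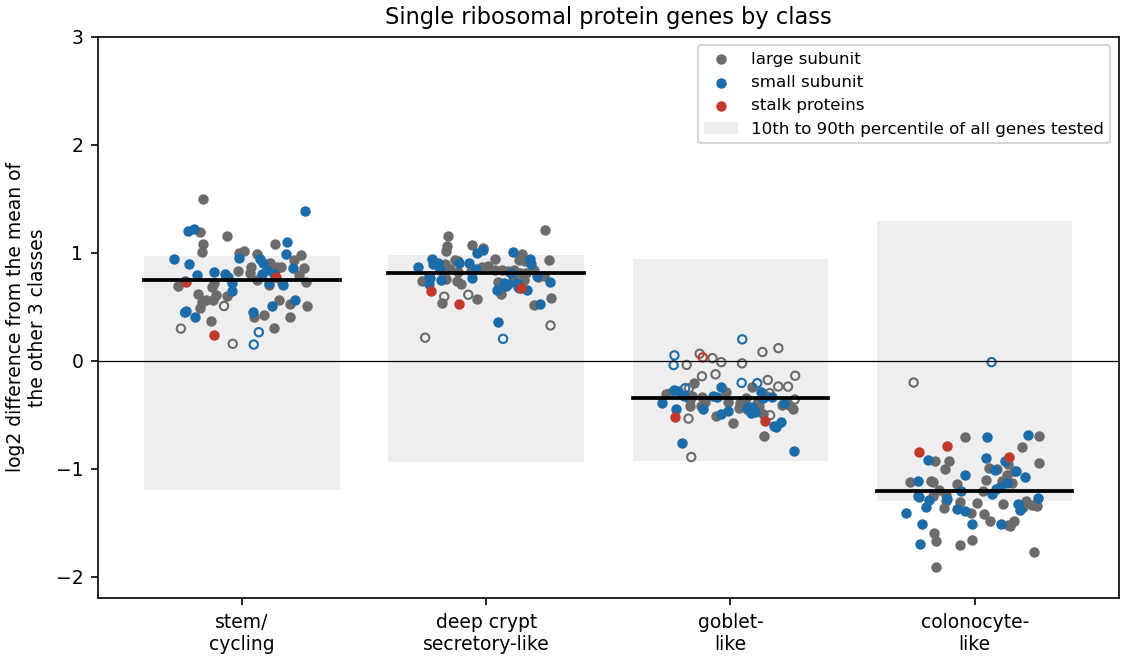
Log2 difference of each of the 79 members from the mean of the other 3 classes (y axis), by class, with filled points called at an adjusted p under 0.05 and open points not called. Black lines are the medians over members, -1.21 in the colonocyte-like and 0.75 in the stem/cycling class, and grey bars span the 10th to 90th percentile of all 8186 genes tested.

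Small-subunit members, which form the platform that decodes the messenger, had a median of -1.23 in colonocyte-like cells with 30 of 31 called lower, and of 0.80 in stem/cycling cells with 28 of 31 called higher. Rpsa, a protein on the outer surface of the small subunit also described as a laminin receptor precursor, stood at 1038 and 1494 CPM in stem/cycling cells, 762 and 1266 CPM in deep crypt secretory-like cells, 291 and 361 CPM in goblet-like cells and 159 and 333 CPM in colonocyte-like cells. Replicate 2 was the higher one in every class, and the crypt-base values did not overlap with those of the mature classes. Its log2 difference was 1.22 ± 0.092 (SE; adjusted p = 3.87e-20) in stem/cycling and -0.76 ± 0.11 (SE; adjusted p = 5.54e-09) in goblet-like cells. Rps2, which lies near the messenger entry of the small subunit, had the largest stem/cycling difference of this subunit at 1.38 ± 0.12 (SE; adjusted p = 1.91e-17). It was captured unevenly between the libraries, at 325 and 605 CPM in stem/cycling and 49.1 and 126 CPM in colonocyte-like cells.

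Rps6, the protein phosphorylated by the S6 kinases downstream of mTORC1, stood at 1124 and 1021 CPM in stem/cycling, 1037 and 1043 CPM in deep crypt secretory-like, 383 and 378 CPM in goblet-like and 179.6 and 249.9 CPM in colonocyte-like cells. The crypt-base libraries lay within 1021 to 1124 CPM and all 4 mature ones at or below 383 CPM. Its colonocyte-like difference was -1.52 ± 0.10 (SE; adjusted p = 7.21e-23). Rps19, a subunit assembly protein mutated in Diamond-Blackfan anaemia, had 1451 and 1441 CPM in stem/cycling and 254 and 312 CPM in colonocyte-like cells, without overlap.

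Rps29, a short zinc-binding protein, stood at 1639.5 and 1532 CPM in stem/cycling, 1719 and 1565 CPM in deep crypt secretory-like, 1245 and 1173 CPM in goblet-like and 755 and 678 CPM in colonocyte-like cells. Its colonocyte-like difference was -0.71 ± 0.084 (SE; adjusted p = 1.19e-11), and the stem/cycling difference of 0.15 ± 0.082 (SE; adjusted p = 0.18) was not called.

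Large-subunit members outside the stalk, which build the part of the ribosome where peptide bonds form, had a median of -1.24 in colonocyte-like cells with 44 of 45 called lower, and of 0.72 in stem/cycling cells with 42 of 45 called higher. Rpl12, which sits at the base of the stalk, had the lowest colonocyte-like value of all members. Its levels were 1359.7 and 1579 CPM in stem/cycling, 1331 and 1490.4 CPM in deep crypt secretory-like, 498 and 547 CPM in goblet-like and 203 and 234 CPM in colonocyte-like cells. The goblet-like and colonocyte-like libraries overlapped with no other class, while the crypt-base classes overlapped each other. The log2 difference of Rpl12 was -1.91 ± 0.099 (SE; adjusted p = 1.94e-30) in colonocyte-like and 1.15 ± 0.082 (SE; adjusted p = 1.55e-21) in deep crypt secretory-like cells. Rpl5, which carries the smallest ribosomal RNA into the large subunit and binds the p53 regulator Mdm2, stood at 1447 and 1524 CPM in deep crypt secretory-like and 228 and 253 CPM in colonocyte-like cells, with the largest deep crypt secretory-like difference of all members at 1.21 ± 0.082 (SE; adjusted p = 1.05e-22). Rpl14 differed by -1.70 ± 0.10 (SE; adjusted p = 3.87e-26) and Rpl3, which lies at the peptidyl transferase centre, by -1.60 ± 0.12 (SE; adjusted p = 1.69e-20) in colonocyte-like cells.

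Rpl41, the shortest ribosomal protein, and Rpl39, which lines the exit tunnel for the new chain, differed less between classes than the median member of their subunit in stem/cycling cells. Rpl41 stood at 2221 and 2484 CPM in stem/cycling, 2391 and 3055 CPM in deep crypt secretory-like, 1417 and 1817 CPM in goblet-like and 950.1 and 1182 CPM in colonocyte-like cells, with a stem/cycling difference of 0.16 ± 0.077 (SE; adjusted p = 0.13), which was not called. Rpl39 differed by 0.30 ± 0.079 (SE; adjusted p = 0.0019) in stem/cycling and -1.06 ± 0.085 (SE; adjusted p = 1.77e-19) in colonocyte-like cells. Rpl9, with 349 UMIs in all, was called in no class: its colonocyte-like difference was -0.20 ± 0.24 (SE; adjusted p = 0.54), at 19.4 and 24.5 CPM there and 26.7 and 64.8 CPM in stem/cycling cells.

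The stalk recruits and stimulates the elongation factors and consists of Rplp0 with pairs of Rplp1 and Rplp2. All 3 were called lower in colonocyte-like cells and higher in both crypt-base classes. Rplp0 stood at 3014 and 3129 CPM in stem/cycling, 2709 and 2743 CPM in deep crypt secretory-like, 1232 and 1137 CPM in goblet-like and 907 and 1010.0 CPM in colonocyte-like cells. Its stem/cycling difference was 0.73 ± 0.074 (SE; adjusted p = 7.75e-14). Rplp1 stood at 891 and 1416 CPM, 1015 and 1449 CPM, 622 and 903 CPM and 391.6 and 546 CPM in the same order, with replicate 2 higher in each class. Its stem/cycling difference of 0.24 ± 0.087 (SE; adjusted p = 0.033) was lost with the shallow colonocyte-like cluster left out (0.21, adjusted p = 0.064) and without the library block (adjusted p = 0.57). The stalk's share of member UMIs was 5.45% and 6.03% in colonocyte-like cells, above the 4.24% and 5.01% in stem/cycling cells in each library.

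Set against each other, the ends of the crypt axis separated every member. Both libraries of stem/cycling cells lay above both of colonocyte-like cells for 79 of 79 members, beside 42.6% of all genes, and 77 were called higher and 0 lower, beside 17.3% and 18.8%. Deep crypt secretory-like libraries likewise lay above the colonocyte-like ones for 79 members, beside 46.1% of all genes, and stem/cycling libraries above the goblet-like ones for 75, beside 40.9%. The median log2 difference was 1.45, against -0.076 over all genes. After Rpl6l (2.37 ± 0.56 (SE; adjusted p = 2.68e-04)), which rests on 5 and 4 UMIs in colonocyte-like cells, Rpl12 differed most, at 2.24 ± 0.11 (SE; adjusted p = 5.50e-31). The lowest values were those of Rps27l, 0.21 ± 0.17 (SE; adjusted p = 0.37), and Rpl9, 0.37 ± 0.30 (SE; adjusted p = 0.37), neither of which was called, and of Rps29, 0.64 ± 0.10 (SE; adjusted p = 8.79e-08). The Rps29 call was lost without the library block (adjusted p = 0.13).

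**Figure D4:**
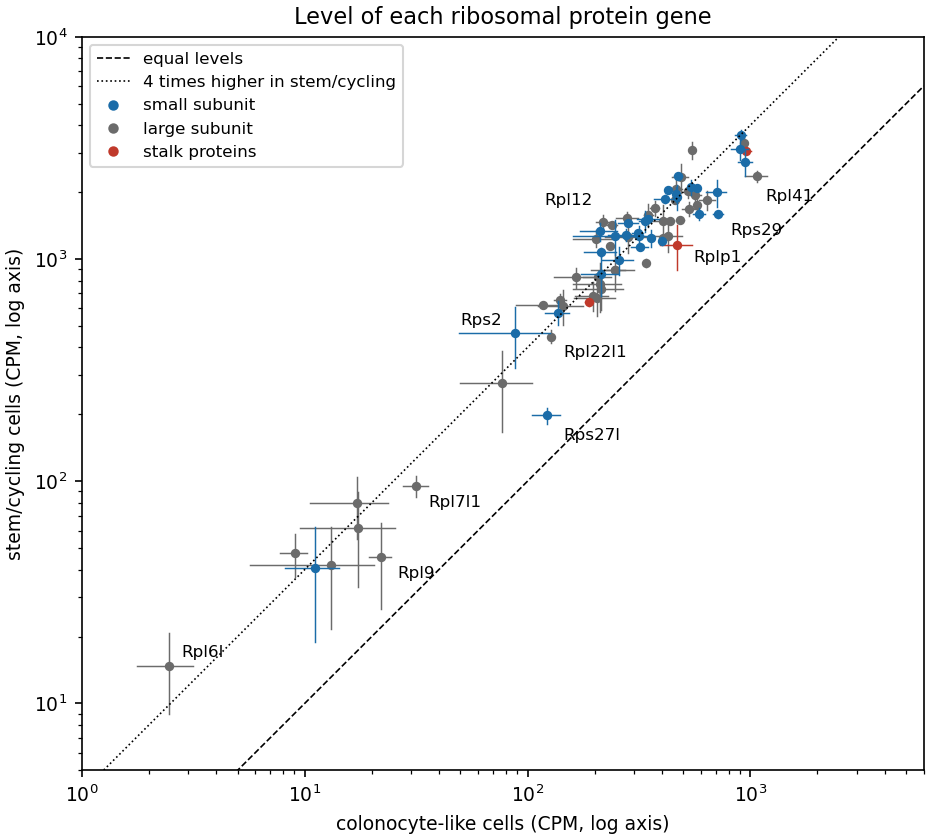
Level of each member in colonocyte-like (x axis) and stem/cycling cells (y axis), both in CPM on log axes, as points for the mean of 2 libraries and lines between the libraries. All 79 points lie above the dashed line of equal levels, and the dotted line marks 4 times higher levels. Rps27l lies closest to equality, at 104 and 140 CPM against 181 and 214 CPM.

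Deep crypt secretory and goblet cells are both secretory, yet the first had more ribosomal protein RNA: 72 members were called higher and 0 lower in deep crypt secretory-like than in goblet-like cells, beside 10.1% and 9.15% of all genes, with a median of 0.87 against 0.060. The count was 26 of 79 without the library block, beside 386 of all 8186 genes called higher. Rpsa, at 1.25 ± 0.12 (SE; adjusted p = 2.09e-14), and Rpl5, at 1.21 ± 0.11 (SE; adjusted p = 4.32e-16), were the highest called, and Rplp1, at 0.37 ± 0.11 (SE; adjusted p = 0.0058), was the lowest called; its call was lost without the block (adjusted p = 0.55). Rps29 showed a difference of 0.12 ± 0.099 (SE; adjusted p = 0.47), with 1719 and 1565 CPM in deep crypt secretory-like and 1245 and 1173 CPM in goblet-like cells. Between stem/cycling and deep crypt secretory-like cells no test was made. Both libraries of stem/cycling cells lay above both of the other class for 12 members, among them Rplp0, Rplp2, Rps19 and Rpl4, and below for 3, Rpl17, Rpl37a and Rpl7a, beside 23.6% and 20.1% of all genes.

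Single members were also compared with their common shift. The same test was run with each sum scaled to its own member UMIs, so that a difference of 0 means moving with the other members. Unless all members move alike, this scaling places some above 0 and others below. The adjustment ran over all 8186 genes, many of which this scaling shifts, so it does not control error among the members alone. On this scale 33 members were called in colonocyte-like cells (16 higher, 17 lower), 30 in stem/cycling (18 and 12), 16 in deep crypt secretory-like (7 and 9) and 16 in goblet-like cells (9 and 7). Of all genes, which this scaling shifts as a body, 65.0% were called higher and 3.35% lower in colonocyte-like, 4.21% and 40.8% in stem/cycling, 3.25% and 41.4% in deep crypt secretory-like and 18.6% and 3.92% in goblet-like cells, so nothing is read from the counts of members. Without the library block 10, 3, 2 and 1 members were called in the same order of classes, beside 4928, 2789, 2637 and 1263 of all 8186 genes. In colonocyte-like cells those 10 included Rpl12, Rpl14, Rpl27a and Rpl5 on the lower side and Rps27l, Rpl9, Rps29 and Rpl41 on the higher.

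Relative to the other members, Rps27l was the highest in colonocyte-like cells at 1.16 ± 0.13 (SE; adjusted p = 2.04e-12), followed by Rpl9 at 0.97 ± 0.25 (SE; adjusted p = 4.13e-04) and Rpl7l1 at 0.49 ± 0.19 (SE; adjusted p = 0.023). Rps29 stood at 0.47 ± 0.083 (SE; adjusted p = 1.02e-06) there. Rpl9 lost its call when the sums were thinned to equal depth (0.16, adjusted p = 0.80). Rpl12 was the lowest at -0.73 ± 0.099 (SE; adjusted p = 6.64e-10), then Rpl5 at -0.60 ± 0.098 (SE; adjusted p = 1.32e-07) and Rpl14 at -0.53 ± 0.10 (SE; adjusted p = 6.09e-06). Rpl27a stood at -0.48 ± 0.086 (SE; adjusted p = 9.98e-07). The stalk proteins stood together on the higher side there, all 3 called, with a median of 0.33, and all 3 calls were lost without the library block (adjusted p = 0.089 for Rplp0, 0.14 for Rplp1 and 0.15 for Rplp2). Stem/cycling cells had Rps29 at -0.55 ± 0.088 (SE; adjusted p = 1.66e-07) and Rpl41 at -0.55 ± 0.083 (SE; adjusted p = 5.39e-08) as the lowest members, and Rps2 at 0.68 ± 0.12 (SE; adjusted p = 2.22e-06) and Rpsa at 0.52 ± 0.096 (SE; adjusted p = 4.44e-06) as the highest called. Of these 4, Rps29 and Rpl41 kept their calls without the library block, and Rps2 and Rpsa did not (adjusted p = 0.080 and 0.083).

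In goblet-like cells the highest members relative to the pool were Rps29 at 0.51 ± 0.084 (SE; adjusted p = 6.82e-07), Rpl22l1 at 0.42 ± 0.11 (SE; adjusted p = 0.0032) and Rpl39 at 0.39 ± 0.084 (SE; adjusted p = 1.14e-04). The lowest called were Rps2 at -0.53 ± 0.14 (SE; adjusted p = 0.0032) and Rpsa at -0.46 ± 0.11 (SE; adjusted p = 4.67e-04). Only Rps29 was called there without the block. Deep crypt secretory-like cells had Rpl5 at 0.42 ± 0.088 (SE; adjusted p = 4.62e-05) as the highest and Rps27l at -0.58 ± 0.14 (SE; adjusted p = 4.37e-04) as the lowest, and both were also called without the block.

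**Figure D5:**
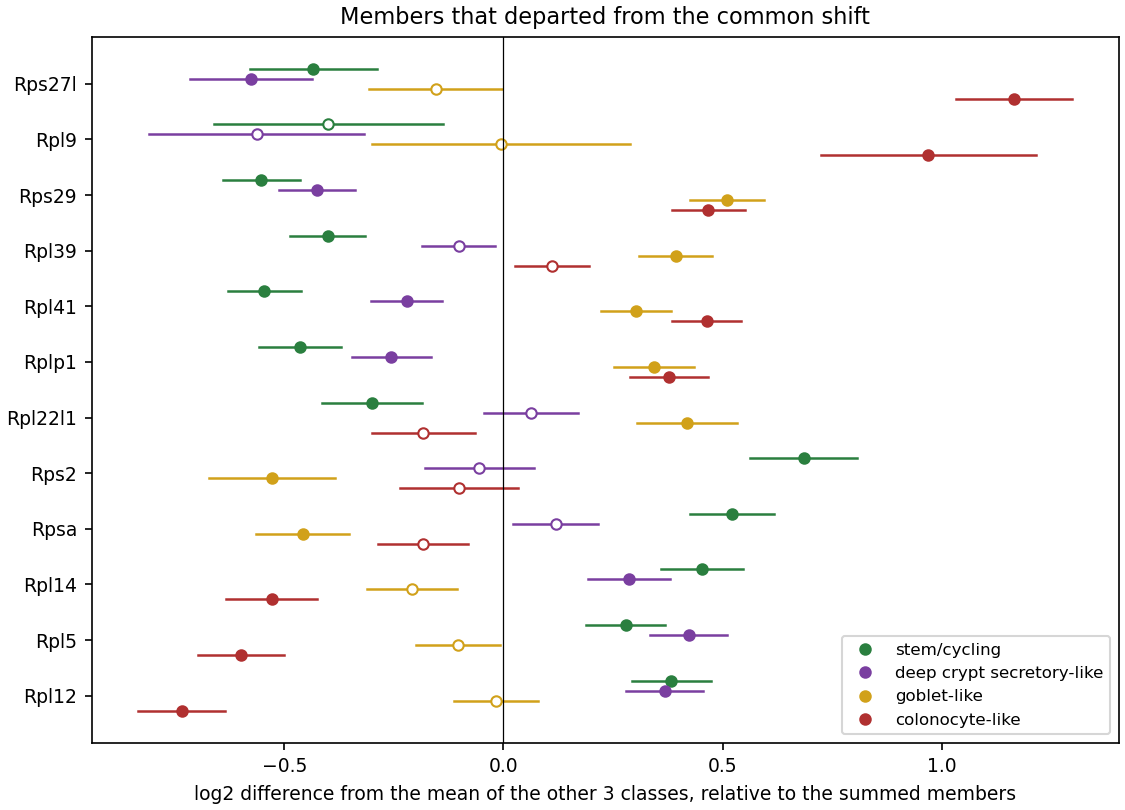
Log2 difference of 12 named members from the mean of the other 3 classes after scaling to the summed members (x axis), by class, with bars of 1 SE and open points where the adjusted p was not under 0.05. Rps27l lies farthest to the right, at 1.16 in colonocyte-like cells, where Rpl12 lies at -0.73, and Rps29 is below 0 in both crypt-base classes and above it in both mature ones.

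Some members are paralogs that can stand in for, or differ in role from, a parent protein. Rps27l, a paralog of Rps27 known as a p53 target, stood at 181 and 214 CPM in stem/cycling, 147 and 216 CPM in deep crypt secretory-like, 102 and 90.7 CPM in goblet-like and 104 and 140.0 CPM in colonocyte-like cells. It was the 1 member of 79 with both colonocyte-like libraries above both goblet-like ones, beside 25.5% of all genes. Its colonocyte-like difference was -0.014 ± 0.13 (SE; adjusted p = 0.94), with its sign changing between other scalings and cell choices. It was called without TMM scaling (-0.34, adjusted p = 0.020), where the median of all genes was at -0.30. Rps27 was captured at 18.9 and 62.5 CPM in stem/cycling and 8.13 and 14.2 CPM in colonocyte-like cells, and is among the uncertain rows, so the ratio of the pair is not interpreted.

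Rpl22l1, which can replace Rpl22 in the large subunit, was captured at 0.57 and 0.47 UMIs per Rpl22 UMI in colonocyte-like cells, 0.52 and 0.48 in stem/cycling, 0.65 and 0.56 in deep crypt secretory-like and 0.73 and 0.82 in goblet-like cells. Goblet-like cells had the highest ratio in each library, overlapping with no other class, and the colonocyte-like ratios overlapped with those of both crypt-base classes. Rpl22l1 itself differed by 0.12 ± 0.11 (SE; adjusted p = 0.55) in goblet-like cells, where Rpl22 differed by -0.37 ± 0.10 (SE; adjusted p = 0.0041). Rpl7l1, a paralog of Rpl7 linked to ribosome assembly, stood at 106 and 84.9 CPM in stem/cycling and 35.7 and 27.7 CPM in colonocyte-like cells, with differences of 0.73 ± 0.19 (SE; adjusted p = 0.0016) and -0.69 ± 0.19 (SE; adjusted p = 0.002). Rpl7 differed by -0.93 ± 0.088 (SE; adjusted p = 8.34e-16) in colonocyte-like cells. Rpl6l had 5 and 4 UMIs in colonocyte-like and 24 and 4 in stem/cycling cells, and its stem/cycling difference of 1.5 ± 0.42 (SE; adjusted p = 0.0038) was lost under DESeq2 (adjusted p = 0.14) and with sums thinned to equal depth (adjusted p = 0.37).

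Ribosomal proteins whose symbols lie outside the rule were compared in the same test. Rack1, a scaffold on the head of the small subunit, stood at 3466 and 2886 CPM in stem/cycling, 3372 and 2767 CPM in deep crypt secretory-like, 1288 and 962 CPM in goblet-like and 669.8 and 581 CPM in colonocyte-like cells, with a colonocyte-like difference of -1.5 ± 0.085 (SE; adjusted p = 3.67e-28). Rpl36al differed by -1.11 ± 0.12 (SE; adjusted p = 7.98e-14) in colonocyte-like cells and was called higher in goblet-like cells, at 0.39 ± 0.11 (SE; adjusted p = 0.0054). Fau, which encodes a ribosomal protein fused to a ubiquitin-like protein, held 260 UMIs in all and was called in no class.

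For the lists that follow, the share of all genes called was 19.3% lower and 21.3% higher in colonocyte-like cells and 13.7% higher and 13.7% lower in stem/cycling cells. Of 35 ribosome assembly factors tested, 29 were called lower and 2 higher in colonocyte-like cells, and 26 higher and 2 lower in stem/cycling cells, with medians of -1.31 and 1.21. Gar1 and Nhp2, proteins of the particles that modify ribosomal RNA, differed by -4.03 ± 0.41 (SE; adjusted p = 1.56e-14) and -2.79 ± 0.24 (SE; adjusted p = 3.61e-18) in colonocyte-like cells. Ubtf, which activates transcription of ribosomal RNA, and Sbds, which frees the new large subunit from the factor Eif6, went the other way, at 0.95 ± 0.11 (SE; adjusted p = 7.32e-12) and 0.88 ± 0.14 (SE; adjusted p = 9.22e-08) there. In stem/cycling cells Gar1 and Nob1 were highest, at 2.51 ± 0.26 (SE; adjusted p = 1.60e-13) and 2.06 ± 0.33 (SE; adjusted p = 2.10e-07), and Ubtf and Sbds lowest, at -0.94 ± 0.14 (SE; adjusted p = 3.50e-08) and -0.70 ± 0.17 (SE; adjusted p = 8.42e-04). The colonocyte-like difference of Gar1 rests on few UMIs, at 1.77 and 1.58 CPM in that class. Nob1 was also low and uneven, at 45.6 and 20.1 CPM in stem/cycling against 19.9 and 20.8 CPM in deep crypt secretory-like cells. It had 2.94 and 5.23 CPM in goblet-like cells. These lists, like the members, were drawn up with earlier results of these data known.

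Of 12 elongation and termination factors tested, 9 were lower and 2 higher in colonocyte-like cells, beside 19.3% and 21.3% of all genes, and 8 higher and 0 lower in stem/cycling cells, beside 13.7% and 13.7%, with medians of -1.16 and 0.73. Abce1, which splits ribosomes after termination, and Eefsec, which delivers selenocysteine, were lowest in colonocyte-like cells, at -2.53 ± 0.27 (SE; adjusted p = 8.23e-14) and -1.94 ± 0.36 (SE; adjusted p = 3.07e-06). Those called higher were Eef2k, the kinase that inhibits elongation factor Eef2, at 1.04 ± 0.19 (SE; adjusted p = 2.12e-06), and the termination factor Gspt1, at 0.50 ± 0.13 (SE; adjusted p = 0.0012). Among 35 initiation factors, 22 were lower and 3 higher in colonocyte-like cells, and 21 higher and 3 lower in stem/cycling cells, beside the same shares of all genes. Eif2s2 was the highest in colonocyte-like and the lowest in stem/cycling cells, at 1.99 ± 0.080 (SE; adjusted p = 3.57e-38) in colonocyte-like and -1.57 ± 0.10 (SE; adjusted p = 1.85e-23) in stem/cycling cells. Eif6, which keeps free large subunits apart from small ones, was higher in colonocyte-like cells, at 0.65 ± 0.12 (SE; adjusted p = 2.26e-06), and Eif2b1 and Eif3l were lowest, at -2.09 ± 0.24 (SE; adjusted p = 3.10e-12) and -1.85 ± 0.25 (SE; adjusted p = 1.61e-09).

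A further list held 14 other genes known for a TOP motif or for translation together with ribosomal protein messenger RNAs. The motif itself was not searched for, and Eef1a1, Eef2 and Pabpc1 are also in the elongation or initiation lists above. Of the 14, 11 were lower and 1 higher in colonocyte-like cells, beside 19.3% and 21.3% of all genes. In stem/cycling cells 11 were higher and 1 lower, beside 13.7% and 13.7%. Snhg1, a host transcript of small nucleolar RNAs, and Nap1l1, a histone chaperone, were lowest in colonocyte-like cells, at -3.23 ± 0.29 (SE; adjusted p = 1.57e-16) and -2.17 ± 0.27 (SE; adjusted p = 7.40e-11). Cox7c, a subunit of respiratory complex IV, was the exception, at 1.09 ± 0.073 (SE; adjusted p = 9.73e-24). Of 20 genes that regulate mTORC1 or TOP translation, 6 were lower and 0 higher in colonocyte-like cells, and 3 higher and 1 lower in stem/cycling cells, beside the same shares of all genes. Larp1, also listed, is not among the genes of the deposited data, and most of the 20 belong to the mTORC1 pathway. Akt1s1, an mTORC1 inhibitor, and Eif4ebp1, a translational repressor that mTORC1 inactivates, were lowest in colonocyte-like cells, at -1.41 ± 0.23 (SE; adjusted p = 2.35e-07) and -1.13 ± 0.24 (SE; adjusted p = 5.41e-05).

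Mitochondrial ribosomal proteins, encoded in the nucleus but assembled into the separate ribosomes of mitochondria, gave 29 lower and 6 higher of 77 in colonocyte-like cells, beside 19.3% and 21.3% of all genes, with a median of -0.40. In stem/cycling cells 33 were higher and 1 lower, beside 13.7% and 13.7%, with a median of 0.46. The cytosolic members had medians of -1.21 and 0.75 in the same comparisons. Mrps18b and Mrps28 were lowest in colonocyte-like cells, at -2.13 ± 0.29 (SE; adjusted p = 1.76e-09) and -1.94 ± 0.25 (SE; adjusted p = 2.26e-10), and Mrps6 and Mrpl14 highest, at 2.45 ± 0.13 (SE; adjusted p = 1.97e-30) and 0.85 ± 0.17 (SE; adjusted p = 1.70e-05).

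The level of each gene was compared with the member share over the 8 class sums, among 871 abundant genes (mean of at least 100 CPM). These exclude the members and the genes used for clustering. Of the 10 that followed the share most closely, 4 were translation factors. Every listed translation gene could enter the 871, while most other genes entered only by a hash of the symbol, so nothing is read from that count. Pearson's r over the 8 sums, given as a description since the sums share 2 libraries and 1 animal, was 0.997 for Eif3k, 0.996 for Eef1g, 0.995 for Nfatc2, 0.994 for Eif3e and 0.993 for Rnf31, followed by Ptma, Sfxn1, Srsf2, Ranbp1 and Eef1b2. Eef1g, a subunit of the elongation factor complex, stood at 962 and 985 CPM in stem/cycling and 170.4 and 208 CPM in colonocyte-like cells. The most opposite were Espn at -0.993, Ltk at -0.992, Clic5 at -0.989, Prkcd at -0.988 and Slc25a20 at -0.987, followed by Cdhr5, Plec, Cutal, Tap2 and Mvp. Espn, an actin-bundling protein of microvilli, stood at 26.7 and 38.0 CPM in stem/cycling and 273 and 237 CPM in colonocyte-like cells. Cdhr5, a cadherin that links microvilli, stood at 135 and 152 CPM and 1035 and 790.1 CPM.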

How the data were processed

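Single-cell RNA-seq of 1 mouse colon, as 2 inDrop libraries, was used. The authors deposited whole-number UMI counts per gene and barcode, per the labels' protocols and the values. The submitters' processing notes name the builds GRCh38 and GRCm38. For the aligner, annotation, strand setting and barcode filter: not given in the sources used here; the K562 cells were not analysed.

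Genes were split by a hash of the symbol into 12623 for clustering and 12881 for readout. Members, pathway genes and mitochondrially encoded genes were always in the readout group and markers in the clustering group. In each library the 5% of barcodes with the highest simulated-doublet score were left out. Counts were scaled to 10000 per cell. The 1500 most variable clustering genes gave 30 principal components, a graph of 15 neighbours and Leiden clusters at resolution 1 (leidenalg 0.10.2, igraph 0.11.9, scikit-learn 1.9.0, Python 3.11.15). The variable-gene measure and the order of naming were settled after clusters had been seen and before any ribosomal protein value was computed.

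UMIs were summed over cells of each class and library into 8 sums of 447739 to 2829262 UMIs. Genes with at least 20 UMIs over these sums were tested with edgeR 4.0.16 (quasi-likelihood test, TMM scaling, R 4.3.3), with the library as a block. The 2 libraries pair the sums by construction, since each gives every class. Adjusted p-values are Benjamini-Hochberg over all genes. Scripts were tested on simulated data. DESeq2 1.42.0, other scalings, filters, clusterings and cell choices were the alternatives. Intervals are exact binomial at 95%.

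Genes named are the 3 highest and 3 lowest members per comparison, the 5 highest and 5 lowest relative to the pool, the 5 with most and fewest UMIs, paralogs, the stalk, Rpsa, the 2 highest and 2 lowest called per pathway list, and the 10 most and 10 least like the member share; other genes named were chosen after their values were seen. Members and lists were chosen with earlier results of these data known. Values of some single genes are not reported here.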

Additional observations from a re-analysis of the deposited data

Results flagged for a closer look

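The T cell-like cells, which entered no class comparison, held a higher ribosomal protein share than any epithelial class: 12.93% of UMIs in replicate 1 and 12.99% in replicate 2. They were 58 and 11 cells with median depths of 1672 and 2138 UMIs, below the 4893 to 7909 of the epithelial classes, and gave 226.5 and 256 member UMIs in the median cell. Immunoglobulin Igha led this cluster, and B and plasma cell markers summed to 49753 CPM in replicate 1 and 87.8 CPM in replicate 2, so its make-up differed between the libraries. The row Rps12-ps3, outside the set by its name, held 5667 UMIs over both libraries while Rps12 held 0.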

How the results depend on the processing

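The median member difference of each class comparison kept its direction under the alternatives run. So did the 60 named member results that were called in the main fit. Rps27l, not called in colonocyte-like cells, changed sign there. Medians relative to the member pool lay near 0 and could change sign, as from -0.035 to 0.012 in colonocyte-like cells without replicate 1. Pathway genes were not refitted. Without the replicate block, member calls fell from 51 to 2 in goblet-like cells, while all-gene lower calls fell from 711 to 309. For deep crypt secretory-like against goblet-like cells they fell from 72 to 26, and all-gene higher calls from 829 to 386. Relative to the member pool, member calls fell to 10 in colonocyte-like, 1 in goblet-like, 2 in deep crypt secretory-like and 3 in stem/cycling cells. All-gene calls there were 4928, 1263, 2637 and 2789 of 8186. Without the doublet filter, 25 members were called lower in goblet-like cells, beside 716 of 8156 genes. Relative to the pool 50 were called in colonocyte-like cells, beside 6102 of 8156 genes. Median member differences in colonocyte-like cells were -1.54 without TMM, -1.62 without the doublet filter, -1.93 at resolution 2, -1.13 without the shallow cluster and -1.32 against all other cells summed. In goblet-like cells they were -0.57 without TMM and -0.22 without the doublet filter. In deep crypt secretory-like cells they were 0.73 with DESeq2 size factors and with its Wald test, 1.01 without TMM, 0.87 without the doublet filter, 0.62 at resolution 2, 0.78 without the shallow cluster and 0.84 against all others. In stem/cycling cells they were 1.09 without TMM, 0.97 without the doublet filter and 0.85 against all others. Leaving out 1 library gave 0.76 to 0.79 in deep crypt secretory-like and 0.73 to 0.84 in stem/cycling cells, as values without a test. Mean shares without mitochondrially encoded genes were 3.13% in colonocyte-like, 4.87% in goblet-like, 10.75% in deep crypt secretory-like and 11.53% in stem/cycling cells. Without the 20 most abundant other genes they were 3.55%, 6.19%, 11.49% and 12.02%, and as medians over cells 1.82%, 4.18%, 10.04% and 10.26%. Without the doublet filter they were 2.10% in colonocyte-like and 10.06% in deep crypt secretory-like cells. Resolution 2 gave 1.75% in colonocyte-like, 9.50% in deep crypt secretory-like and 11.05% in stem/cycling cells, and colonocyte-like cells without the shallow cluster held 3.0%. The cause was not tested. Of 553 tested values of named members under other settings, 509 kept their call and 44 lost it, 28 of these without the block; the other 120, with 1 library left out, had no test. All-gene calls without TMM, higher to lower, were 1891 to 617 in deep crypt secretory-like (1233 to 867 with TMM), 662 to 1348 in goblet-like (918 to 711), 2426 to 918 for stem/cycling against colonocyte-like (1417 to 1540) and 1674 to 440 for deep crypt secretory-like against goblet-like cells (829 to 749). All values rest on 1 animal.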

Other observations

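The unnamed cells, 273 and 212 in the 2 libraries, held 6.59% and 6.51% of UMIs in ribosomal protein genes, between the goblet-like and crypt-base classes. Their main cluster, led by Olfr1121, stood at 7.57% and 7.20%. A cluster led by Cldn34d, in which mitochondrially encoded transcripts took 35.5% and 46.1% of UMIs, stood at 4.16% and 2.99%. The row Rps12-ps3 stood at 116 and 294 CPM in colonocyte-like, 278 and 589 CPM in goblet-like, 514 and 1233 CPM in deep crypt secretory-like and 510 and 1255 CPM in stem/cycling cells, with replicate 2 higher in each class.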
